A study of Mus musculus with 16 samples.

Results

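Chemokines are small secreted proteins that guide migrating cells, and their receptors are G protein-coupled receptors on those cells. Homeostatic chemokines are made steadily and place lymphocytes and stem cells in tissues, while inflammatory chemokines are induced in injured or infected tissue and draw monocytes, neutrophils, eosinophils and T cells. In the heart, macrophages, fibroblasts, endothelium and cardiomyocytes can all make chemokines, and the receptors are carried mostly by resident and recruited immune cells. The genes described here were all those whose current symbol is Ccl, Cxcl, Ccr, Cxcr, Xcl, Xcr or Cx3c followed by a number or by l1 or r1, named through the transcript accession of each probe. They numbered 53 of 31758 genes on the array, 34 ligands and 19 receptors. Of these, 41 genes (29 ligands and 12 receptors) gave a signal well above background on every array of 1 or more groups and were tested, and 12 were not.

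RNA was taken from whole hearts of male C57BL/6 mice, 1 heart per single-colour Agilent array and 4 arrays per group. The 4 groups were cardioMRKO at 2 months, MRflox at 2 months, cardioMRKO at 1 month and MRflox at 1 month of age. Every mouse carried a floxed allele of the mineralocorticoid receptor gene Nr3c2, which encodes a nuclear receptor for aldosterone and corticosteroids. The cardioMRKO mice also carried αMHC-Cre, whose promoter is active in cardiomyocytes, and the MRflox mice were their littermates without Cre. The effects of Cre itself and of the lost receptor were therefore not separated, and cells other than cardiomyocytes keep the receptor gene. The 4 arrays of a group shared 1 slide and no slide held more than 1 group, so that slide and group cannot be told apart.

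Levels are given as log2 intensity minus the log2 of the 75th percentile on the same array, and differences are log2 values of the limma fit with their standard error (SE) and n = 4 arrays per group. A called gene had a two-sided p, adjusted over 20056 genes by Benjamini-Hochberg, under 0.05. The arrays came from separate animals, and p-values measure the spread between them. On each array 62.5% to 71.6% of probes were well above background, and the number of arrays limits the precision. In RNA of a whole organ, fewer cells of a type and less RNA per cell cannot be told apart. The mean of 6 cardiomyocyte genes was 7.18 to 7.72 on the 16 arrays of this heart tissue, far above the 75th percentile. Nr3c2 stood at −3.90, −4.05, −4.44 and −4.13 in cardioMRKO and −3.72, −3.89, −3.76 and −3.44 in MRflox at 2 months, a difference of −0.43 (SE 0.144, limma adjusted p = 0.122). At 1 month it averaged −4.63 ± 0.11 in cardioMRKO and −4.46 ± 0.25 in MRflox (SD, n = 4), a difference of −0.17 (limma adjusted p = 0.988). The groups did not overlap at 2 months, narrowly, and overlapped at 1 month, and neither difference passed the test. Where the probe lies relative to the floxed exons was not given, so Nr3c2 is a limited check of the labels.

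Some arrays stood apart from the others of their group before any comparison. The mean of 6 markers of airway and lung epithelium was 0.19 to 5.47 on the 8 arrays of 2-month hearts. At 1 month it was 2.05, −0.53, −5.88 and −0.92 in cardioMRKO and −5.68, −5.30, −6.16 and 2.93 in MRflox, so cardioMRKO replicate 1 and MRflox replicate 4 were high for their age. In cardioMRKO replicate 4 at 2 months the mean of 8 T-cell genes was −1.63 and the mean of 6 B-cell genes −0.92, while the other 3 arrays of the group read −4.20 to −3.75 and −3.81 to −2.91. Spike-in controls read low in cardioMRKO replicate 3 (−0.54) and MRflox replicate 4 (−0.77) at 2 months. Of the 41 genes tested, cardioMRKO replicate 4 held the highest value of its group in 22, cardioMRKO replicate 3 the lowest in 29, and MRflox replicate 4 the highest in 23.

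**Figure D1:**
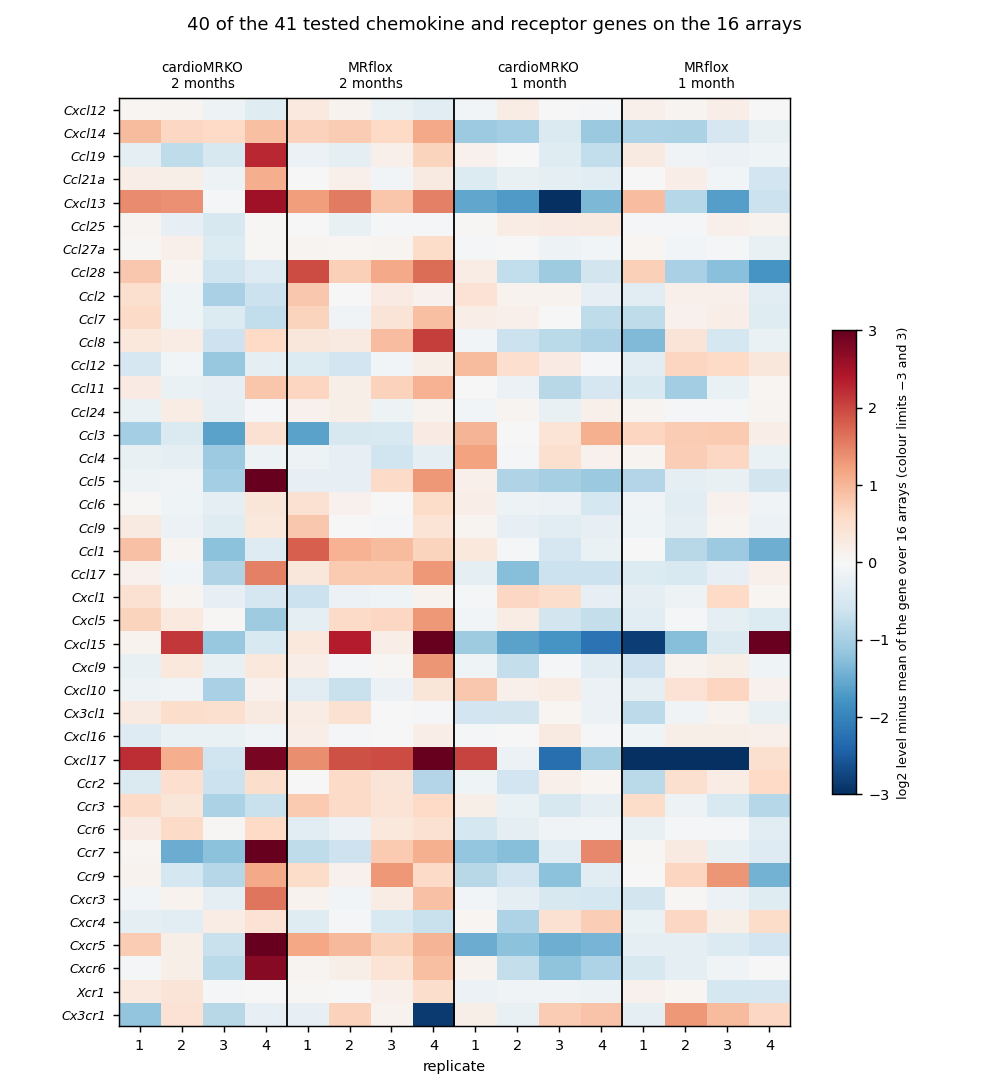
Log2 level of each of 40 of the 41 tested chemokine and receptor genes minus its mean over 16 arrays (colour, limits −3 and 3), with genes in rows and the 4 replicates of each group in columns. Cxcl14, Cxcl13 and Cxcr5 are red on most 2-month arrays and blue on most 1-month arrays, and cardioMRKO replicate 4 at 2 months is dark red for Ccl5, Ccr7 and Cxcr5.

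The 12 genes not tested were Ccl20, Ccl22, Ccr1, Ccr10, Ccr1l1, Ccr4, Ccr8, Cxcl2, Cxcl3, Cxcr1, Cxcr2 and Xcl1. Of these, 4 were well above background on no array and 8 on 1 to 6 arrays. They include the receptors of the neutrophil chemokines, Cxcr1 and Cxcr2, and the Cxcr2 ligands Cxcl2 and Cxcl3. Of the 41 genes tested, 31 were above background on all 16 arrays. Ccl28, Cxcl15 and Cxcl5 passed the filter only through MRflox at 2 months, their highest group, so the filter itself favoured a difference from that group, and such a difference of these 3 genes is given as a description. The 31 genes above background on all arrays include stromal and lymphoid chemokines, such as Cxcl12. Its product retains stem cells and lymphocytes through Cxcr4. Cxcl12 stood at 4.35 ± 0.21 and 4.41 ± 0.29 in cardioMRKO and MRflox at 2 months and at 4.47 ± 0.13 and 4.55 ± 0.08 at 1 month (SD, n = 4). Ccl19, Ccl21a and Ccl27a have near-identical gene copies in the mouse, which their probes may also bind, so their values are uncertain as to the copy.

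The comparison of 2-month with 1-month hearts asked which chemokine genes differ with postnatal age in each genotype. In cardioMRKO 5 of the 41 genes were called, all higher at 2 months: Cxcl14, Cxcl13, Cxcr5, Cx3cl1 and Ccr6. They are 12.2% of the genes tested, where 10.2% of all genes were called, 5.32% higher and 4.93% lower. In MRflox 7 were called, again all higher at 2 months: Cxcl14, Cxcl13, Ccl28, Ccl11, Ccl8, Ccl1 and Cxcl17, which are 17.1% of the genes tested, where 22.7% of all genes were called, 16.7% higher and 5.91% lower. The share called higher was thus close to that of all genes in MRflox, and 6 of the 7 were left without Ccl28. Cxcl14 and Cxcl13 were called in both genotypes, 40.0% of the cardioMRKO list and 28.6% of the MRflox list. Both age comparisons rest on different arrays, and 25 of the 41 differences were above 0 in both, 11 below 0 in both and 5 of opposite sign. Above 0 were 63.4% in cardioMRKO and 70.7% in MRflox, beside 50.1% and 58.4% of all genes. The overlap of calls and the shared signs are not given over all genes. Neither is therefore shown to be particular to these genes. The median difference of the 41 genes was 0.26 in cardioMRKO and 0.39 in MRflox, beside 0.00 and 0.07 over all genes.

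**Figure D2:**
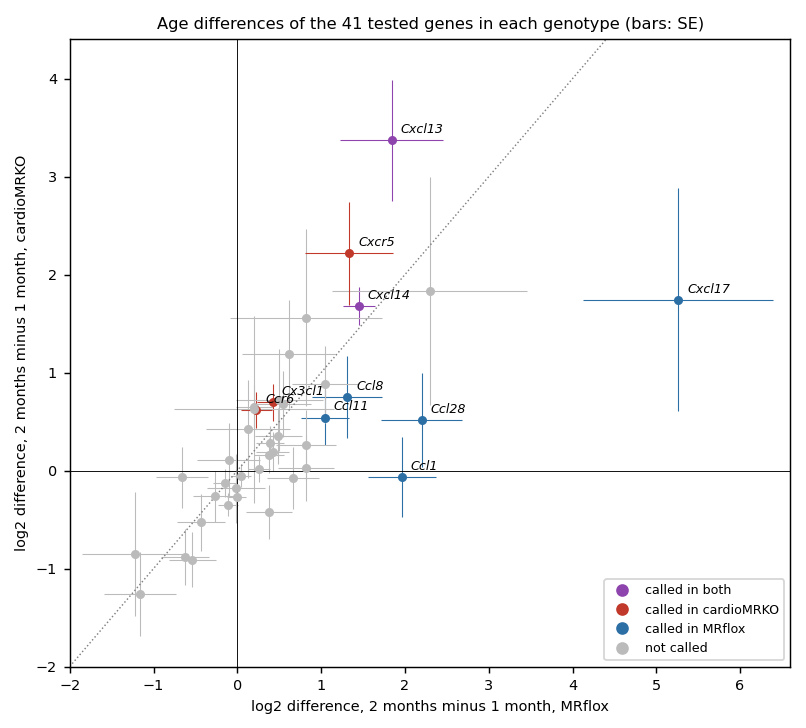
Age difference (2 months minus 1 month, log2) of each of the 41 tested genes in MRflox (x axis) and cardioMRKO (y axis), with bars for the SE of the limma fit and a dotted line of equal differences. Cxcl14 lies close to the line at 1.45 and 1.68, Cxcl13 above it, and Cxcl17, Ccl28 and Ccl1 to its right.

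Among the homeostatic ligands, Cxcl14 and Cxcl13 rose with age in both genotypes. Cxcl14 encodes a ligand made in many epithelia and stromal tissues, whose receptor is debated. It stood at 2.53, 2.21, 2.19 and 2.49 at 2 months and at 0.51, 0.56, 1.16 and 0.47 at 1 month in cardioMRKO. In MRflox it stood at 2.29, 2.36, 2.19 and 2.72 at 2 months and at 0.67, 0.64, 1.08 and 1.37 at 1 month. Every 2-month array lay above every 1-month array in both genotypes. The differences were 1.68 (SE 0.192, 3.21-fold, limma adjusted p = 0.000225) in cardioMRKO and 1.45 (SE 0.192, 2.73-fold, limma adjusted p = 0.000264) in MRflox. The difference between these was 0.23 (limma adjusted p = 0.796). Cxcl14 was called in both genotypes under all 19 other settings tried, with differences of 1.61 to 1.84 in cardioMRKO and 1.31 to 1.59 in MRflox.

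Cxcl13 encodes the ligand that draws B cells into follicles through Cxcr5. It stood at −0.30, −0.36, −1.78 and 0.82 at 2 months and at −3.27, −3.41, −5.35 and −3.06 at 1 month in cardioMRKO. In MRflox it stood at −0.47, −0.16, −0.90 and −0.22 at 2 months and at −0.80, −2.57, −3.37 and −2.37 at 1 month. All 2-month arrays of cardioMRKO lay above all of its 1-month arrays, whereas in MRflox replicate 1 at 1 month lay above replicate 3 at 2 months. The difference was 3.37 (SE 0.614, 10.3-fold, limma adjusted p = 0.00364) in cardioMRKO and was called in all 19 other settings. In MRflox it was 1.84 (SE 0.614, 3.58-fold, limma adjusted p = 0.0437), and the call was lost in 11 of 19 other settings, among them leaving out any 1 of the 8 arrays other than MRflox replicate 1 at 1 month (limma adjusted p 0.0551 to 0.134).

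Cxcr5, the Cxcl13 receptor on B cells and follicular T cells, stood at −2.97, −3.56, −4.39 and −0.71 at 2 months and at −5.22, −4.95, −5.20 and −5.13 at 1 month in cardioMRKO. In MRflox it stood at −2.58, −2.76, −3.07 and −2.72 at 2 months and at −4.00, −4.02, −4.14 and −4.31 at 1 month. The ages did not overlap in either genotype. Cxcr5 rose by 2.22 in cardioMRKO (SE 0.525, 4.65-fold, limma adjusted p = 0.0160), with 1.49 when replicate 4 at 2 months, the array of high lymphocyte signal, was left out. In MRflox the difference of 1.33 did not pass (SE 0.525, limma adjusted p = 0.0851), and it passed when the fit held only the 8 MRflox arrays (limma adjusted p = 0.00278). In cardioMRKO the call was lost with only its own 8 arrays (limma adjusted p = 0.0812) and with normexp background correction (1.01, limma adjusted p = 0.112). The mean of the 6 tested B-cell genes lay at −3.81 to −0.92 at 2 months and −4.57 to −4.22 at 1 month in cardioMRKO, and at −3.0 to −2.60 and −4.05 to −3.28 in MRflox. Of these genes 4 in cardioMRKO and 1 in MRflox were called higher at 2 months, where 5.32% and 16.7% of all genes were. Pax5 was above background on no array of any group. The part of B cells in the Cxcl13 and Cxcr5 values was not tested.

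The 250 bases before the transcript start of 3 genes called with age are printed to show which of the searched motifs they hold. They come from the RefSeq annotation of build GRCm38.p6 and read 5′ to 3′ on the strand of the gene. Cxcl14 lies at chr13:56296552-56296801 on the minus strand, Cxcl13 at chr5:95956689-95956938 on the plus strand and Cx3cl1 at chr8:94771930-94772179 on the plus strand. Capitals mark the hexamer AGAACA, bound by steroid receptors and read here as TGTTCT, in Cxcl14. In Cxcl13 and Cx3cl1 they mark the hexamer TATAAA, the letters of a TATA box.
Cxcl14: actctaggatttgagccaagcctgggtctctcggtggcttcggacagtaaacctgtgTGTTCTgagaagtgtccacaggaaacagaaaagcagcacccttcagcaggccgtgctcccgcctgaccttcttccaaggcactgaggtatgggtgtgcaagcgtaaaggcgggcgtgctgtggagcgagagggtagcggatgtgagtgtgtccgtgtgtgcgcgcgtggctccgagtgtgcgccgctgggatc
Cxcl13: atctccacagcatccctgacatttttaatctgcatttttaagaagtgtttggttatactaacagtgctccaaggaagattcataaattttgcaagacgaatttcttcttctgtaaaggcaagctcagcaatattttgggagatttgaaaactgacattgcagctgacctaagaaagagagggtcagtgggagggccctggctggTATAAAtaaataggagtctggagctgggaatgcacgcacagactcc
Cx3cl1: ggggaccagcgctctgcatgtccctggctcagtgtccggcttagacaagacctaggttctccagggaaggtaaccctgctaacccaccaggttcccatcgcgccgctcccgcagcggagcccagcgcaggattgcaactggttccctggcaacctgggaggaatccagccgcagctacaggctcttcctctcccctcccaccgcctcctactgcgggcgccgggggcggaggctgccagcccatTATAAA
The match begins 193 bases before the start in Cxcl14, 46 in Cxcl13 and 6 in Cx3cl1. In Cx3cl1 the match thus ends at the transcript start and is named by its letters alone. Of 53 genes 40 had a promoter in the table. AGAACA was found on either strand in 7 of the 40 (17.5%) and in 16.1% of 32851 promoters, and TATAAA in 12 (30.0%) and 12.4%. The NF-κB motif, bound by the main transcription factor of inflammatory signalling, was found in 8 (20%), which were Ccl20, Ccl9, Ccr3, Ccr6, Cxcl1, Cxcl10, Cxcl2 and Cxcl3, and in 3.90% of all promoters. A gene of the 40 counts with a match in any of its promoters, whereas the share of all promoters counts each promoter. The shares set side by side are therefore not the same measure. No searched motif holds another. A match is a description of letters, and binding was not measured.

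**Figure D3:**
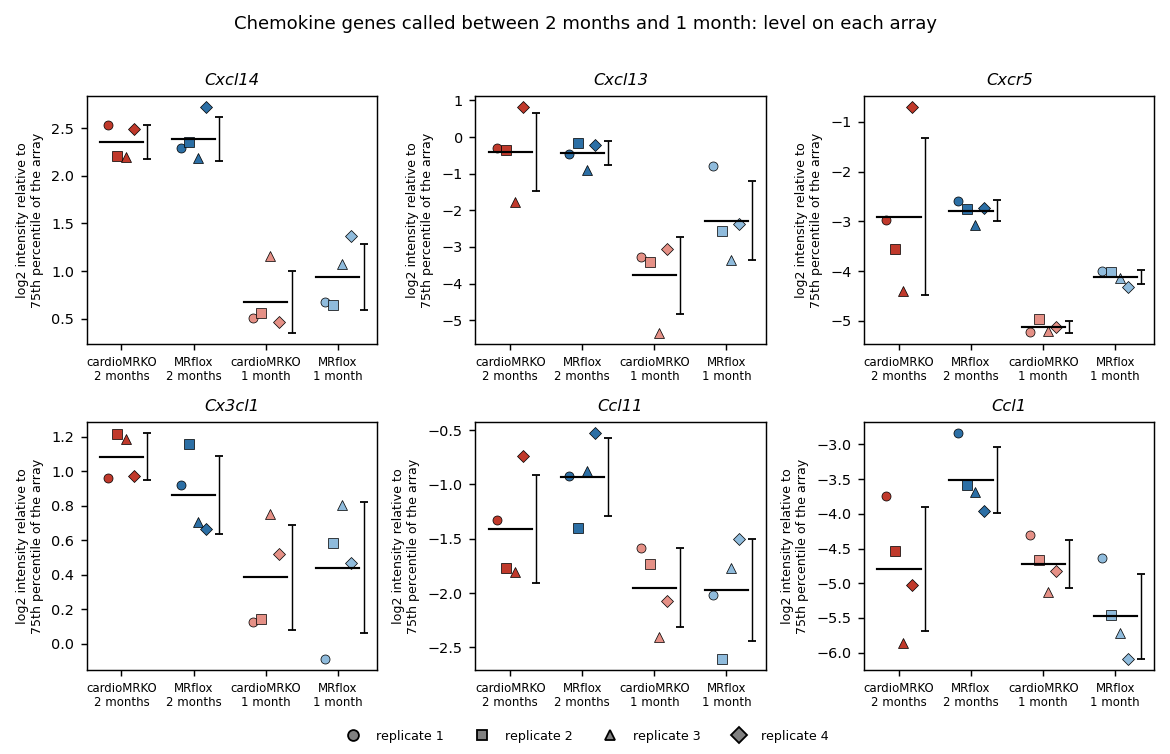
Level of 6 genes called with age on each of 16 arrays (log2 intensity, with the array's 75th percentile at 0), with marker shape for the replicate, a line at the mean of 4 arrays and a bar for the SD. In Cxcl14 and Cxcr5 all 2-month points lie above all 1-month points of the same genotype, and cardioMRKO replicate 4 at 2 months is the top Cxcr5 value at −0.71.

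Of the other homeostatic ligands, limma called Ccl28 in MRflox. Ccl28, a mucosal ligand of Ccr10 and Ccr3, stood at −3.69, −4.92, −4.50 and −3.96 at 2 months and at −4.93, −6.61, −6.91 and −7.42 at 1 month in MRflox. In cardioMRKO it stood at −4.82, −5.56, −6.24 and −6.03 at 2 months and at −5.43, −6.39, −6.72 and −6.19 at 1 month. The MRflox ages did not overlap, narrowly, and the cardioMRKO ages overlapped. The fitted difference was 2.20 in MRflox (SE 0.481, limma adjusted p = 0.00477), a value that the filter favoured, and 0.52 in cardioMRKO (limma adjusted p = 0.565). Ccl28 was above background on 1 of 4 arrays in each 1-month group. For a lower bound, each MRflox 1-month array was set to no less than the lowest signal well above background on it. In the main processing this made Ccl28 at least 2.93-fold higher at 2 months. The bound does not cover the 18 other settings in which Ccl28 was tested, with fitted differences of 0.69 to 2.71. Ccl21a, the lymphatic ligand of Ccr7 on T cells and dendritic cells, differed by 0.65 in cardioMRKO with no overlap (limma adjusted p = 0.0756) and by 0.20 in MRflox. Its partner Ccl19 differed by 0.42 and 0.12 in cardioMRKO and MRflox, but by −0.27 and −0.07 without replicate 4 of the genotype at 2 months. Ccl25 differed by −0.35 and −0.12, Ccl27a by 0.02 and 0.26 and Cxcl12 by −0.13 and −0.15 in cardioMRKO and MRflox. None of these passed in the main fit. Quantile normalization and array weights called Ccl21a in cardioMRKO, as did leaving out replicate 3 at 2 months or both low spike-in arrays. Array weights also called Ccl25 in cardioMRKO, and normexp called Ccl27a in MRflox. The lymphatic endothelium markers averaged −1.41 ± 0.07 and −1.34 ± 0.12 at 2 months and −1.61 ± 0.07 and −1.60 ± 0.03 at 1 month (SD, n = 4, cardioMRKO and MRflox).

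Of the 13 inflammatory CC ligands tested, 3 (23.1%) rose with age in MRflox, where 16.7% of all genes were called higher, and limma called 0 in cardioMRKO, where 10.2% of all genes were called. Ccl11, the eotaxin that draws eosinophils through Ccr3, stood at −0.92, −1.40, −0.87 and −0.53 at 2 months and at −2.01, −2.61, −1.77 and −1.51 at 1 month in MRflox. In cardioMRKO it stood at −1.33, −1.77, −1.80 and −0.74 at 2 months and at −1.58, −1.73, −2.40 and −2.08 at 1 month. The MRflox ages did not overlap, and the cardioMRKO ages did. The difference was 1.04 in MRflox (SE 0.284, 2.06-fold, limma adjusted p = 0.0163) and 0.54 in cardioMRKO (limma adjusted p = 0.263). Without MRflox replicate 2 at 1 month, the lowest array, it was 0.83 (limma adjusted p = 0.0543). Ccl24, the other eotaxin gene measured, differed by 0.05 in MRflox and −0.05 in cardioMRKO, and the receptor Ccr3 by 0.82 (limma adjusted p = 0.0986) and 0.03.

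Ccl8, a relative of Ccl2 in the same gene cluster, stood at −1.59, −1.66, −0.99 and 0.15 at 2 months and at −3.24, −1.53, −2.45 and −2.14 at 1 month in MRflox. Replicate 4 at 2 months was the highest array, and replicate 2 at 1 month lay above replicates 1 and 2 at 2 months. Ccl8 rose by 1.31 (SE 0.418, 2.48-fold, limma adjusted p = 0.0356), a call that was kept in 9 of 19 other settings. It was lost without MRflox replicate 1, 3 or 4 at 1 month or replicate 3 or 4 at 2 months, with a difference of 0.92 without the high replicate 4 (limma adjusted p 0.0580 to 0.105 over these). In cardioMRKO Ccl8 differed by 0.75 (limma adjusted p = 0.295).

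Ccl1, a ligand of Ccr8 made by activated T cells and mast cells, stood at −2.84, −3.58, −3.69 and −3.95 at 2 months and at −4.64, −5.46, −5.72 and −6.09 at 1 month in MRflox. In cardioMRKO it stood at −3.74, −4.54, −5.87 and −5.02 at 2 months and at −4.30, −4.66, −5.12 and −4.82 at 1 month. The ages did not overlap in MRflox and were interleaved in cardioMRKO. Ccl1 rose by 1.96 in MRflox (SE 0.405, 3.90-fold, limma adjusted p = 0.00337), called in all 18 other settings in which it was tested. The size of the difference depended on the setting, with 0.68 to 2.24 over these. Ccl1 was above background on 3 of 4 MRflox arrays at 1 month. In cardioMRKO it differed by −0.07 (limma adjusted p = 0.945), and its receptor Ccr8 was above background on no array. The mean of 5 mast-cell genes tested lay at −1.42 to −0.40 at 2 months and −1.91 to −1.63 at 1 month in MRflox. There 2 of the 5 were called higher, beside 16.7% of all genes. In cardioMRKO the mast-cell mean lay at −1.82 to −1.03 at 2 months and −1.99 to −1.40 at 1 month. There 0 of the 5 were called higher, beside 5.32% of all genes. The mean of 8 T-cell genes in MRflox lay at −3.99 to −3.06 at 2 months and −4.27 to −3.57 at 1 month. Of these 8 genes, 2 were called higher in MRflox and 2 in cardioMRKO, beside 16.7% and 5.32% of all genes. The part of mast cells or T cells in the Ccl1 values was not tested.

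Ccl3, Ccl4 and Ccl12 lay lower at 2 months in both genotypes, without passing the test. Other settings called some of them: quantile normalization called Ccl3 and Ccl4 in MRflox (limma adjusted p = 0.0256 and 0.0297) and Ccl4 in cardioMRKO (limma adjusted p = 0.0272), and array weights called all 3 in MRflox and Ccl3 and Ccl12 in cardioMRKO. Ccl3 and Ccl4 encode inflammatory chemokines made by macrophages, and Ccl12 a mouse ligand of Ccr2. Ccl12 stood at −1.75, −1.34, −2.38 and −1.55 at 2 months and at −0.30, −0.75, −1.02 and −1.30 at 1 month in cardioMRKO, and the ages did not overlap. Its difference was −0.91 in cardioMRKO (SE 0.280, limma adjusted p = 0.0535) and −0.54 in MRflox (limma adjusted p = 0.192). Ccl4 differed by −0.88 (limma adjusted p = 0.0639) and −0.63 (limma adjusted p = 0.133), and Ccl3 by −1.26 (limma adjusted p = 0.0786) and −1.17 (limma adjusted p = 0.0661), in cardioMRKO and MRflox. Without the 2-month array of high lymphocyte signal, cardioMRKO replicate 4, Ccl3 fell by 1.63 (limma adjusted p = 0.0236), and without MRflox replicate 4 at 2 months it fell by 1.44 in MRflox (limma adjusted p = 0.0328). Ccl12 passed without cardioMRKO replicate 4 at 1 month (−1.07, limma adjusted p = 0.0450). The mean of 8 macrophage genes was 0.67 ± 0.15 and 0.78 ± 0.16 at 2 months and 0.87 ± 0.05 and 0.75 ± 0.15 at 1 month (SD, n = 4, cardioMRKO and MRflox). The rest of the inflammatory CC ligands did not pass in either genotype, with differences from −0.42 (Ccl2) to 1.56 (Ccl5) in cardioMRKO and from 0.05 (Ccl24) to 1.05 (Ccl17, no overlap, limma adjusted p = 0.0710) in MRflox. Without cardioMRKO replicate 4 at 2 months, the Ccl5 difference was 0.28. Other settings called Ccl17 in MRflox, among them the replicate block, array weights and the fit of only the 8 arrays. Array weights called Ccl17 in cardioMRKO too.

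Of the membrane-anchored ligands, Cx3cl1 rose with age in cardioMRKO. It encodes fractalkine, made by endothelium and neurons, whose receptor Cx3cr1 is carried by monocytes and resident macrophages. Cx3cl1 stood at 0.96, 1.22, 1.18 and 0.97 at 2 months and at 0.13, 0.15, 0.75 and 0.52 at 1 month in cardioMRKO. In MRflox it stood at 0.92, 1.16, 0.71 and 0.66 at 2 months and at −0.09, 0.58, 0.81 and 0.47 at 1 month. The ages did not overlap in cardioMRKO and overlapped in MRflox. The difference was 0.70 in cardioMRKO (SE 0.190, 1.62-fold, limma adjusted p = 0.0319) and 0.42 in MRflox (limma adjusted p = 0.132). The cardioMRKO call was kept in 11 of 19 other settings. Leaving out replicate 1, 2 or 4 at 1 month or replicate 1, 2 or 3 at 2 months ended it (limma adjusted p 0.0504 to 0.0983). Endothelial markers lay lower at 2 months, with means of 2.5 ± 0.11 and 2.56 ± 0.07 at 2 months and 2.69 ± 0.07 and 2.77 ± 0.11 at 1 month (SD, n = 4, cardioMRKO and MRflox). The fibroblast markers likewise read 3.08 to 3.44 on the 2-month arrays and 3.67 to 4.00 on the 1-month arrays of both genotypes. Cx3cr1 differed by −0.85 in cardioMRKO and −1.22 in MRflox (limma adjusted p = 0.450 and 0.188), and MRflox replicate 4 at 2 months was its lowest array at −4.76.

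Cxcl16, the anchored ligand of Cxcr6 on T cells, stood at −0.47, −0.27, −0.27 and −0.19 at 2 months and at −0.10, −0.10, 0.20 and −0.14 at 1 month in cardioMRKO. These did not overlap, and the difference of −0.27 did not pass (SE 0.108, limma adjusted p = 0.141). In MRflox it was −0.01. Cxcl9 and Cxcl10, the interferon-inducible ligands of Cxcr3 on activated T cells, differed by 0.35 and −0.53 in cardioMRKO and by 0.49 and −0.43 in MRflox, none past the test. Cxcl1 and Cxcl5, neutrophil chemokines, differed by −0.26 and 0.26 in cardioMRKO and by −0.27 and 0.82 in MRflox. The Cxcl5 value in MRflox was favoured by the filter and did not pass (limma adjusted p = 0.117). Cxcl5 was called in MRflox with normexp and without replicate 1 at 2 months. Under normexp background correction Cxcl5 in cardioMRKO and Cxcl1 in MRflox changed sign, to −0.0039 and 0.044.

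Among the receptors, 2 of 12 (16.7%) rose with age in cardioMRKO, where 5.32% of all genes were called higher, and 0 of 12 were called in MRflox by limma, where 22.7% of all genes were called. Ccr6, the receptor of Ccl20 on B cells and some T cells, stood at −0.43, −0.09, −0.63 and −0.07 at 2 months and at −1.20, −0.97, −0.77 and −0.74 at 1 month in cardioMRKO. The ages did not overlap, narrowly. It rose by 0.62 (SE 0.185, 1.54-fold, limma adjusted p = 0.0473), a call kept in 6 of 19 other settings. Leaving out any 1 array but cardioMRKO replicate 3 at 2 months ended it (limma adjusted p 0.0623 to 0.127). In MRflox Ccr6 stood at −1.01, −0.86, −0.36 and −0.22 at 2 months and at −0.90, −0.70, −0.73 and −1.02 at 1 month, a difference of 0.23 (limma adjusted p = 0.412). In MRflox the ages of Cxcr5 and of Cxcr6 (0.61, limma adjusted p = 0.458) did not overlap, without passing the test. Over all 41 genes the ages did not overlap for 10 in cardioMRKO (7 higher and 3 lower at 2 months), beside 19.9% of all genes, and for 8 in MRflox (all higher), beside 28.0%. At an unadjusted p under 0.05 there were 13 genes in cardioMRKO and 16 in MRflox, beside 25% and 34.5% of all genes.

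Cxcl17 and Cxcl15 are given beside the airway markers of the same arrays. Cxcl17 encodes a chemokine of mucosal epithelium, most of all in the airways, and Cxcl15 a mouse neutrophil chemokine of lung epithelium. Cxcl17 stood at −1.47, −0.97, −0.93 and 0.31 at 2 months and at −7.92, −6.96, −6.82 and −2.39 at 1 month in MRflox. In cardioMRKO it stood at −0.66, −1.79, −3.47 and −0.02 at 2 months and at −0.85, −3.04, −5.14 and −3.87 at 1 month. The MRflox ages did not overlap, and the highest 1-month arrays, MRflox replicate 4 and cardioMRKO replicate 1, were those of high airway signal. Cxcl17 rose by a fitted 5.26 in MRflox (SE 1.14, limma adjusted p = 0.00447), called in all 18 other settings in which it was tested, with differences of 2.30 to 6.47. It was above background on 1 of 4 MRflox arrays at 1 month. For a lower bound, these arrays were set to no less than the lowest signal well above background on each. In the main processing this made Cxcl17 at least 22.0-fold higher at 2 months. The bound does not cover the other settings, whose lowest difference was 2.30. In cardioMRKO Cxcl17 differed by 1.74 (limma adjusted p = 0.379). In MRflox 5 of the 6 airway genes were called higher at 2 months, beside 16.7% of all genes, and the median difference of the 6 was 7.14. In cardioMRKO limma called 0 of 6, beside 10.2% of all genes, with a median of 3.24. The part of airway tissue in the RNA was not tested.

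Cxcl15 stood at −5.24, −3.19, −5.34 and −0.81 at 2 months and at −8.38, −6.84, −5.97 and −2.59 at 1 month in MRflox. In cardioMRKO it stood at −5.44, −3.43, −6.69 and −6.01 at 2 months and was above background on no array at 1 month, which made it at least 1.44-fold higher at 2 months. That bound rests on replicate 2 at 2 months, without which the 2-month mean of −6.04 lay below the 1-month bound of −5.92 and no fold was left. Its age difference did not pass in MRflox (2.30, limma adjusted p = 0.180), a value that the filter favoured, or in cardioMRKO (1.83, limma adjusted p = 0.363). Cxcl15 was called in MRflox without replicate 4 at 1 month, an array of high airway signal. The lower bound sets each 1-month array to the higher of its own value and the lowest signal well above background.

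**Figure D4:**
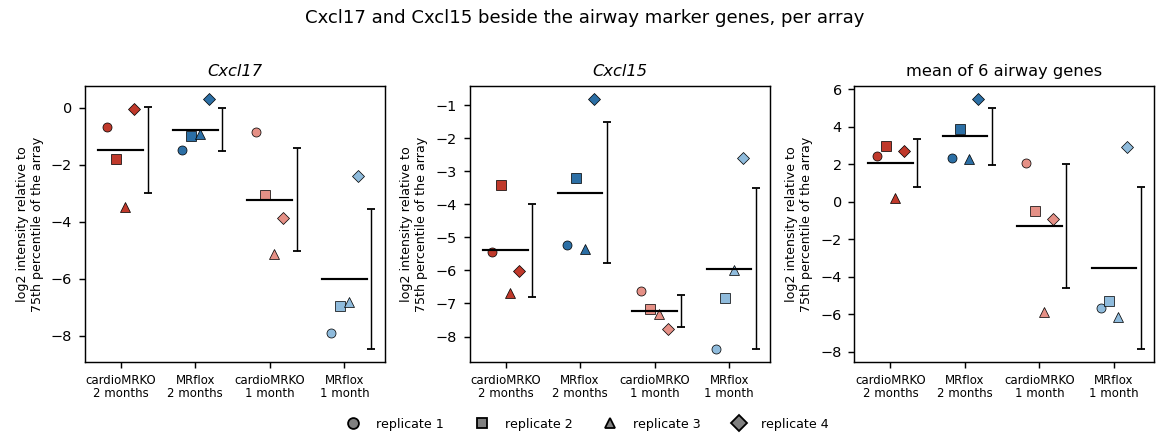
Level of Cxcl17 and Cxcl15 and the mean of 6 airway marker genes on each of 16 arrays (log2 intensity, with the array's 75th percentile at 0), with marker shape for the replicate, a line at the mean of 4 arrays and a bar for the SD. MRflox replicate 4 at 1 month is the top array of its group in all 3 panels, at −2.39, −2.59 and 2.93.

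The comparison of cardioMRKO with MRflox at 2 months bears on chemokine genes in hearts whose cardiomyocytes lack the receptor gene. By limma 0 of the 41 genes were called, beside 3.53% of all genes (1.55% higher and 1.98% lower). At an unadjusted p under 0.05 there were 5, beside 18.8% of all genes, and all 5 lay lower in cardioMRKO: Ccl1, Ccl28, Cxcl16, Ccr3 and Ccl2. Normexp background correction and a fit with the replicate number as a block each called 2, Ccl1 and Ccl28, beside 4.44% and 5.25% of all genes. Of these, Ccl28 is a gene that passed the filter only through MRflox at 2 months. One gene, Cxcl16, had groups that did not overlap, beside 10.2% of all genes. Of the 41 differences 12 (29.3%) were above 0, where 38.0% of all genes were, with a median of −0.12 beside −0.08 over all genes. The 13 inflammatory CC ligands had 1 difference above 0 (Ccl5) and a median of −0.28, and the 12 receptors had 6 above 0 and a median of 0.02.

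Ccl1 stood at −3.74, −4.54, −5.87 and −5.02 in cardioMRKO and −2.84, −3.58, −3.69 and −3.95 in MRflox at 2 months. Only cardioMRKO replicate 1 lay within the MRflox range. The difference was −1.28 (SE 0.405, limma adjusted p = 0.0967), and without that array it was −1.63 (limma adjusted p = 0.0297). It was −0.62 with normexp (limma adjusted p = 0.0426) and kept its value under the replicate block (limma adjusted p = 0.00538). Ccl28 stood at −4.82, −5.56, −6.24 and −6.03 in cardioMRKO and −3.69, −4.92, −4.50 and −3.96 in MRflox, with cardioMRKO replicate 1 again within the MRflox range. Its difference was −1.39 (SE 0.481, limma adjusted p = 0.128), with −0.66 under normexp (limma adjusted p = 0.0260) and a limma adjusted p of 0.0179 under the block.

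Cxcl16 stood at −0.47, −0.27, −0.27 and −0.19 in cardioMRKO and 0.12, −0.15, −0.06 and 0.11 in MRflox at 2 months. The groups did not overlap, narrowly, and the difference of −0.31 did not pass (SE 0.108, limma adjusted p = 0.139). Its dimmer probe differed by −0.05. Ccl2, the main monocyte chemokine, stood at 0.71, 0.10, −0.74 and −0.42 in cardioMRKO and 1.03, 0.22, 0.48 and 0.36 in MRflox, a difference of −0.61 (SE 0.275, limma adjusted p = 0.245). The receptor Ccr2, carried by recruited monocytes, differed by −0.03 (95% interval −0.84 to 0.78), and the mean of 6 monocyte genes was −1.14 ± 0.61 in cardioMRKO and −0.54 ± 0.49 in MRflox (SD, n = 4). Ccr3, the eosinophil receptor, differed by −0.76 (limma adjusted p = 0.238), its ligand Ccl11 by −0.48, Ccl7 by −0.64, Ccl8 by −0.77, Ccl27a by −0.25 and Ccr6 by 0.31, none past the test.

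The remaining ligand and receptor pairs did not pass at 2 months, and their intervals show how much could be seen. Cxcl12 differed by −0.06 (95% interval −0.36 to 0.24) and Cxcr4 by 0.39 (−0.28 to 1.06). The other Cxcr4 probe, nearly as bright, differed by −0.18, so the sign for Cxcr4 depends on the probe. Cx3cl1 differed by 0.22 (−0.18 to 0.63) and Cx3cr1 by 0.12 (−1.23 to 1.47), and Cxcl14 by −0.03 (−0.44 to 0.38). The dimmer probes of Cx3cr1, Cxcl12 and Ccl25 differed by −0.70, 0.06 and 0.12, so the signs for these genes depend on the probe too. Cxcl13 differed by 0.03 (−1.28 to 1.34), Cxcr5 by −0.12 (−1.25 to 1.00), Cxcl9 by −0.32, Cxcl10 by −0.08 and Cxcr3 by 0.05. Without cardioMRKO replicate 4, the array of high lymphocyte signal, the Cxcr5 difference was −0.86 (limma adjusted p = 0.0892). Ccl21a differed by 0.25 (−0.22 to 0.72), Ccl25 by −0.08 (−0.33 to 0.18), Ccr9 by −0.67 (−1.78 to 0.45), Cxcl1 by 0.16 (−0.40 to 0.72) and Xcr1 by −0.02 (−0.38 to 0.34). That array held the highest Ccl5 and Ccr7 values of all 16. Ccl5, made by T cells, stood at −0.69, −0.65, −1.55 and 4.16 in cardioMRKO and −0.78, −0.78, 0.04 and 0.77 in MRflox. Ccr7, the homing receptor of naive T cells, stood at −4.89, −6.43, −6.17 and −1.11 in cardioMRKO and −5.72, −5.58, −4.15 and −3.87 in MRflox. In Ccl5, Ccr7, Ccl19 and Cxcr6 the cardioMRKO mean was above that of MRflox by 0.51, 0.18, 0.10 and 0.12. Without both 2-month arrays that stood apart, cardioMRKO and MRflox replicate 4, these were −0.45, −0.68, −0.41 and −0.45, a setting chosen after the values were seen.

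**Figure D5:**
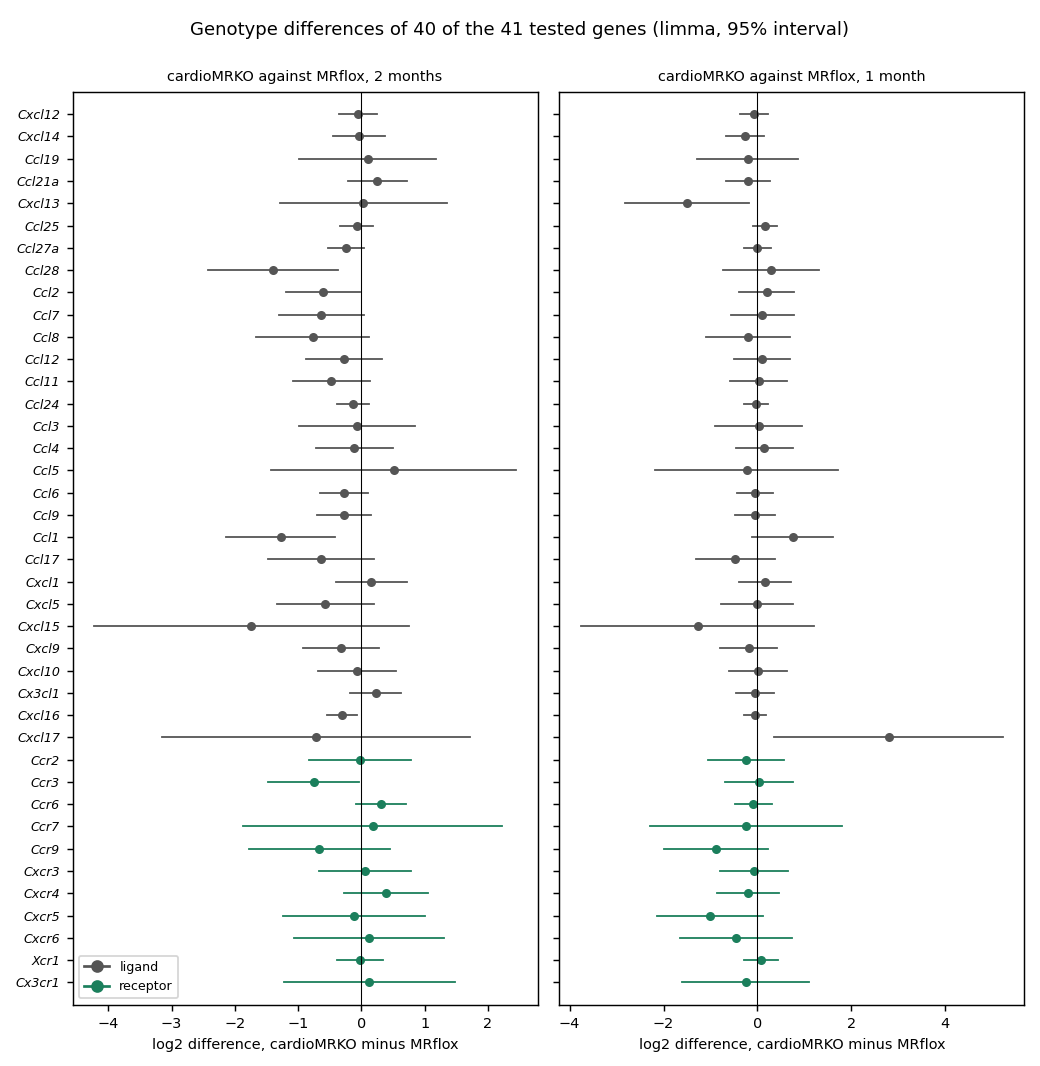
Log2 difference of cardioMRKO minus MRflox (point) with its 95% interval (line) for 40 of the 41 tested genes at 2 months (left) and 1 month (right), ligands in grey and receptors in green, by limma. At 2 months most ligands lie left of 0, and Ccl1 and Ccl28 lie at −1.28 and −1.39.

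At 1 month limma called 0 of the 41 genes between cardioMRKO and MRflox, beside 0.0947% of all genes. At an unadjusted p under 0.05 there were 2, Cxcl17 and Cxcl13, beside 6.02% of all genes. Of the differences 14 (34.1%) were above 0, where 54.3% of all genes were, with a median of −0.06 beside 0.02 over all genes, and 2 of the 12 receptors were above 0 with a median of −0.24. Cxcl17 averaged −3.23 ± 1.80 in cardioMRKO and −6.02 ± 2.47 in MRflox (SD, n = 4), a difference of 2.80 (SE 1.14, limma adjusted p = 0.768), beside airway means of −1.32 ± 3.31 and −3.55 ± 4.34 for the same arrays. Cxcl13 stood at −3.27, −3.41, −5.35 and −3.06 in cardioMRKO and −0.80, −2.57, −3.37 and −2.37 in MRflox. MRflox replicate 3 lay within the cardioMRKO range, and the difference was −1.50 (SE 0.614, limma adjusted p = 0.777).

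Cxcr5 was the gene whose genotypes did not overlap at 1 month, beside 7.63% of all genes. It stood at −5.22, −4.95, −5.20 and −5.13 in cardioMRKO and −4.00, −4.02, −4.14 and −4.31 in MRflox. The lowest MRflox array lay above the highest cardioMRKO array. The difference of −1.01 did not pass when the spread was estimated over all 16 arrays (SE 0.525, limma adjusted p = 0.880). These include the cardioMRKO array of high lymphocyte signal at 2 months, whose part in that result was not tested. With only the 8 arrays of 1-month hearts the difference passed (limma adjusted p = 0.0231), where 0.0499% of all genes were called. The mean of 6 B-cell genes lay at −4.57 to −4.22 in cardioMRKO and −4.05 to −3.28 in MRflox at 1 month. Blk, Cd22, Cd79a and Pax5 were above background on no cardioMRKO array and Blk and Pax5 on no MRflox array of that age. Neither the part of B cells nor that of the slide was tested.

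The remaining pairs did not pass at 1 month. Cxcl12 differed by −0.08 (95% interval −0.38 to 0.22) and Cxcr4 by −0.20 (−0.87 to 0.46), Cx3cl1 by −0.06 (−0.46 to 0.35) and Cx3cr1 by −0.25 (−1.60 to 1.10). Ccl2 differed by 0.19 (−0.40 to 0.78) and Ccr2 by −0.24 (−1.05 to 0.57). Cxcl14 differed by −0.27 (−0.68 to 0.14), Ccl25, a ligand of thymus and gut, by 0.16 (−0.10 to 0.41) and its receptor Ccr9 by −0.88 (−2.0 to 0.23). The dimmer probes of Cx3cr1 and Ccl25 differed by 0.10 and −0.02, each of opposite sign to the probe used. Xcr1, the receptor of cross-presenting dendritic cells, differed by 0.08 (−0.28 to 0.44). Ccl21a, Ccl19 and Ccr7 differed by −0.20, −0.20 and −0.25, Cxcl9, Cxcl10 and Cxcr3 by −0.19, 0.02 and −0.08, Ccl5 by −0.23, Cxcl16 and Cxcr6 by −0.05 and −0.46 and Cxcl1 by 0.16. Ccl17, a ligand of Ccr4, differed by −0.47 (−1.31 to 0.37), and Cxcl15, above background on 0 cardioMRKO arrays and 1 MRflox array, by −1.28 (−3.77 to 1.21).

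The test of whether the genotype difference changed between the ages called 0 of the 41 genes by limma, beside 0.748% of all genes. At an unadjusted p under 0.05 there were 3, Ccl1, Ccl28 and Cxcl17, beside 11.3% of all genes. Of these, Ccl28 passed the filter only through MRflox at 2 months, so the filter favoured its change. Ccl1 had the smallest p: cardioMRKO minus MRflox was −1.28 at 2 months and 0.75 at 1 month, a change of −2.03 (SE 0.573, limma adjusted p = 0.140). It was called under the replicate block (limma adjusted p = 0.00439) and without cardioMRKO replicate 1 at 2 months (−2.38, limma adjusted p = 0.0383). For Ccl28 the change was −1.68 (SE 0.680, limma adjusted p = 0.352) and for Cxcl17 −3.52 (SE 1.61, limma adjusted p = 0.429). The next 7 by p were Ccl2 (−0.80), Cxcl13 (1.53), Cxcl16 (−0.26), Ccl7 (−0.74), Ccr3 (−0.79), Ccr6 (0.39) and Ccl21a (0.45), with limma adjusted p 0.463 to 0.633. Calls with age in MRflox and not in cardioMRKO, such as Ccl11 (limma adjusted p of the change = 0.697), were thus not shown to differ between genotypes.

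Genes that act beside chemokines and their receptors were read from 3 lists. The atypical receptors and other chemokine-like genes (12 of 13 tested), the signalling proteins below the receptors (28 of 30) and the cytokines and transcription factors known to induce chemokines (17 of 25) held 0 genes called by limma in either genotype comparison or in its change with age. Their medians were −0.11, −0.07 and −0.03 at 2 months and −0.01, −0.03 and −0.06 at 1 month, beside −0.08 and 0.02 over all genes. The smallest adjusted p among them was that of the receptor kinase Grk2 at 2 months (−0.30, limma adjusted p = 0.0776).

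With age, Cd74 and Cmklr1 of the first list rose in both genotypes. Cd74 encodes the invariant chain of antigen presentation and a receptor of the cytokine Mif. It stood at 2.87, 3.42, 3.16 and 3.80 at 2 months and at 1.86, 0.99, 1.39 and 1.04 at 1 month in cardioMRKO, and at 3.38, 3.39, 3.11 and 3.65 and 1.30, 2.30, 2.30 and 1.81 in MRflox. The ages did not overlap, and the differences were 1.99 (SE 0.257, limma adjusted p = 0.000460) and 1.45 (SE 0.257, limma adjusted p = 0.00138) in cardioMRKO and MRflox. Cmklr1, the receptor of chemerin, rose by 1.02 and 1.09, with −3.21 to −3.03 and −3.30 to −2.75 at 2 months and −4.28 to −3.78 and −4.36 to −3.78 at 1 month. The scavenging receptor Ackr4, which removes Ccl19 and Ccl21, fell by 0.86 in cardioMRKO (SE 0.254, limma adjusted p = 0.0449). These made 3 of 12 called in cardioMRKO (2 higher and 1 lower) and 2 of 12 in MRflox, both higher, which is 25% and 16.7%, beside 10.2% and 22.7% of all genes.

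Of the 28 signalling genes, 2 (7.14%) were called with age in cardioMRKO, Ptk2b higher by 0.60 and Arrb2 (β-arrestin, which ends receptor signalling) lower with −0.61. In MRflox 5 (17.9%) were called, so that both shares were below those of all genes. Ptk2b, a tyrosine kinase below the receptors, rose by 0.71, the regulator Rgs2 by 0.66 and the receptor kinase Grk3 by 0.43, while Prex1 fell by 0.79 and Pik3cd fell by 1.24. Of the 17 inducing genes, limma called 0 in cardioMRKO and 2 (11.8%) in MRflox, beside 10.2% and 22.7% of all genes. These 2 were Il13, higher by 0.82, and Nfkbia, the inhibitor of NF-κB, lower with −0.82. Ptk2b was called with the same sign in both genotypes.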

How the data were processed

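Single-colour Agilent arrays measured RNA of 16 mouse hearts, 4 per group. Per the file headers, the deposited intensity values are processed signals of Feature Extraction 12.0.0.7 (9.5 in the submitters' processing notes), already background-corrected by the scanner software. The deposited series table held the same values as the array files (largest difference 0). From these, log2 intensities were computed from the deposited signals, less the 75th percentile of each array. Outlier spots were set missing, and control spots were left out. Of 41174 probes, 27278 were kept, those with a signal well above background on every array of 1 or more groups. Accessions gave 28223 probes a current symbol and left 12951 without one. Where a gene had several probes, the brightest by its mean over all arrays was used, which gave 20056 genes.

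One linear model of the 4 groups was fitted (R 4.3.3, limma 3.58.1 with empirical Bayes moderation, 12 residual and 2.19 prior degrees of freedom), after a test on simulated data, and p-values were adjusted over all genes. The members and lists were chosen with earlier results of these data known. Every called member, the 10 with the smallest p per comparison and fixed ligand and receptor pairs were named. One tested receptor gene counts in the totals and is not reported here by name. The alternatives were normexp background correction (offset 50, on median signals since the files hold no mean), quantile normalization, other filters and probe rules, array weights, a replicate block, smaller fits and left-out arrays.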

Additional observations from a re-analysis of the deposited data

Results flagged for a closer look

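Of 156 sets of 4 arrays (39 genes in 4 groups), 9 held 1 array far from the other 3 relative to the range of the group. Chance gives about 1 in 20 such sets. In cardioMRKO at 2 months, replicate 4 was high for Ccl5 (4.16, the others −1.55 to −0.65) and Ccl19 (3.34, the others 0.31 to 0.77), and it is the array with high T-cell and B-cell markers. Replicate 3 of that group was low for Ccl4 (−5.38, the others −4.57 to −4.45). In MRflox at 2 months, replicate 4 was high for Ccl27a (0.77, the others 0.28 to 0.32).

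In cardioMRKO at 1 month, replicate 3 was low for Cxcl13 (−5.35, the others −3.41 to −3.06) and high for Cxcl14 (1.16, the others 0.47 to 0.56) and Cxcl16 (0.20, the others −0.14 to −0.10). In MRflox at 1 month, replicate 1 was high for Ccl19 (1.35, the others 0.88 to 0.96) and low for Cxcl16 (−0.20, the others 0.07 to 0.10). What set these arrays apart was not tested.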

How the results depend on the processing

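Of 1663 pairs of a value and another setting, 1503 kept direction and side of the threshold, 45 lost a call, 33 gained one and 82 changed sign; the cause was not tested. Cxcl14 kept its call in both genotypes throughout. Both settings named for airway signal and for arrays apart in chemokine genes were chosen after seeing the data. Signal near background limits Ccl1, Ccl28, Cxcl15 and Cxcl17, and 4 arrays per group limit all values. In every group the replicate number was also the position on the slide. Whether it pairs the samples was not settled. Of 24 correlations 10 were over 0.1 (range −0.31 to 0.36). Of 16 arrays 8 correlated best with their own number. Under the replicate block 2 genes (Ccl1 and Ccl28) were called between genotypes at 2 months, beside 5.25% of all genes. In the difference between ages 1 (Ccl1) was called, beside 2.45%. Ccl28 passed the filter only through MRflox at 2 months. Between genotypes, normexp called 2 at 2 months (4.44% of all genes) and the fit of only the 8 arrays called 1 at 1 month (Cxcr5, 0.0499%). With age in MRflox, 4 of the 31 tested were called when every array had to be above background, beside 19.9% of all genes. Array weights called 15 (30.9% of all genes). With age in cardioMRKO, 3 were called with normexp (6.23% of all genes) and with no filter on dim probes (53 tested, 4.62%). Likewise 3 were called with only the 8 arrays (9.37%) and without both 1-month arrays of high airway signal (8.22%). Array weights called 14 there (25.5% of all genes). Leaving out 1 array gave 5 to 7 calls with age in MRflox, beside 16.9% to 22.5% of all genes. In cardioMRKO it gave 3 to 6, beside 6.2% to 12.9%. Between genotypes it gave 0 to 1 at 2 months (1.52% to 4.37%) and 0 to 0 at 1 month (0.0349% to 0.0897%). For the difference between ages it gave 0 to 1 (0.299% to 1.42%). The gained call was Ccl1 without cardioMRKO replicate 1 at 2 months. Over the 88 values behind these pairs, sign changes were in genotype differences. Of the age differences of all 41 genes, 7 in MRflox and 12 in cardioMRKO changed sign in 1 or more settings, and none of these was called; of the age differences printed, those of Ccl1, Ccl19, Ccl24, Ccl27a and Ccr3 in cardioMRKO and of Ccl19 and Cxcl16 in MRflox did so when 1 array was left out. At 2 months, array weights gave Cx3cr1 −0.64, Cxcl9 0.011, Cxcl10 0.29, Ccl25 0.037, Xcr1 0.20 and Cxcl14 0.093. The mean of the probes gave Cxcl12 0.00041, Cx3cr1 −0.29 and Ccl25 0.020. Normexp gave Cx3cr1 −0.14, Cxcr3 −0.076 and Cxcl1 −0.15, and quantile normalization Cxcl12 0.080, Xcr1 0.010 and Cxcl14 0.060. Leaving out both low spike-in arrays, the values were Cx3cr1 −0.51, Cxcr5 0.39, Cxcl9 0.079, Cxcl10 0.35, Ccl25 0.040, Xcr1 0.17 and Cxcl14 0.13. Without both arrays apart in chemokine genes they were Cx3cr1 −0.71, Ccr7 −0.68, Ccl19 −0.41, Cxcl13 −0.30, Cxcr3 −0.17, Ccl5 −0.45, Cxcr6 −0.45, Xcr1 0.14 and Cxcl14 0.033. At 1 month, Cxcl10 was −0.013 with quantile normalization and −0.21 with array weights, and without both arrays of high airway signal Cx3cl1 was 0.039, Cxcl10 −0.20 and Xcr1 −0.010. Leaving out 1 array at 2 months gave Ccl19 −0.60 to 0.41, Ccl21a −0.0031 to 0.41, Ccl25 −0.15 to 0.032, Ccl5 −0.77 to 1.13, Ccr2 −0.33 to 0.19, Ccr7 −1.0 to 0.77, Cx3cr1 −0.64 to 0.54, Cxcl1 −0.0088 to 0.31, Cxcl10 −0.23 to 0.16, Cxcl12 −0.16 to 0.053, Cxcl13 −0.38 to 0.49, Cxcl14 −0.10 to 0.077, Cxcr3 −0.37 to 0.27, Cxcr5 −0.86 to 0.37, Cxcr6 −0.62 to 0.56 and Xcr1 −0.10 to 0.095. At 1 month it gave Ccr7 −0.84 to 0.063, Cx3cl1 −0.23 to 0.066, Cxcl10 −0.17 to 0.16, Cxcr3 −0.18 to 0.018, Cxcr4 −0.42 to 0.13 and Xcr1 −0.025 to 0.19.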
